A study of Mus musculus with 4 samples.

Results

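Tumour necrosis factor (TNF) and 8 relatives from its ligand and receptor superfamily were followed here: the ligands Tnf, Ltb, Tnfsf13 and Tnfsf13b and the receptors Tnfrsf1a, Tnfrsf1b, Ltbr, Cd40 and Fas. They were taken by exact gene symbol from the deposited count table, 9 of its 53801 genes, and RANK (Tnfrsf11a), the receptor that drives osteoclast formation, is not among them. All 9 had 1 gene ID each and enough counts to be tested. RNA was sequenced from osteoclast precursors, myeloid cells able to fuse into bone-resorbing osteoclasts, of wild type C57BL/6 mice. The precursors came from 2 mice, carry the numbers 1 and 2 in the labels, and received either PBS, the saline control, or 200 ng/ml of DKK1, a secreted antagonist of Wnt signalling, for 3 h. This gave 4 libraries, 2 per treatment, called PBS 1, DKK1 1, PBS 2 and DKK1 2 below, and values are given in that order. The number was taken as the mouse. The labels used here give no age, sex, tissue of origin or culture conditions, so a difference between precursor cells 1 and 2 may come from the mouse, the isolation, the culture or the library, which cannot be told apart.

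TNF superfamily ligands are mostly trimeric proteins that cluster their receptors at the cell surface, and the receptors pass the signal on through TRAF adaptors to NF-kB and MAP kinases or, where they carry a death domain, to caspases. In the osteoclast lineage TNF is known to act together with RANKL, the ligand of RANK, to favour differentiation through Tnfrsf1a, whereas Tnfrsf1b has been linked to restraint of it in mice. Macrophages are a main source of TNF and also make Tnfsf13 (APRIL) and Tnfsf13b (BAFF), the survival factors of B cells and plasma cells.

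The libraries held between 41163663 and 53537927 counts, and 17462 genes were tested. Monocyte and macrophage markers summed to between 24560 and 32610 CPM per library (counts scaled to library size, with TMM factors), and all 12 were tested. Most of that sum came from Lyz2, with means of 24850 and 14490 CPM in precursor cells 1 and 2. Osteoclast markers summed to between 1007 and 1172 CPM, with Calcr, the calcitonin receptor of mature osteoclasts, at 0 in all 4 libraries. Tnfrsf11a itself had 11282, 11222, 7622 and 8849 counts, and was called neither with DKK1 (log2 0.02; edgeR adjusted p = 0.993) nor between the preparations (log2 0.01; edgeR adjusted p = 0.9).

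Of the 9 genes, 4 lie in neighbouring pairs in the mouse genome (GRCm38, GENCODE M21). Tnf (chr17:35199381-35202007, minus strand) and Ltb (chr17:35194439-35196320, plus strand) are 3060 bases apart with no gene between them. Tnfrsf1a (chr6:125349362-125362484, plus strand) and Ltbr (chr6:125306571-125313885, minus strand) are 35476 bases apart, with Scnn1a between them. The others stand alone: Tnfrsf1b (chr4:145213463-145246870, minus strand), Cd40 (chr2:165055627-165072948, plus strand), Fas (chr19:34290666-34327772, plus strand), Tnfsf13 (chr11:69682846-69685784, minus strand) and Tnfsf13b (chr8:10006467-10039072, plus strand). Of the 9, only Tnfsf13 shares exon bases with other gene models.

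The bases just upstream of the start are shown for 4 of these genes. Tnf is shown as the ligand with the highest level, and Tnfrsf1b, Fas and Tnfsf13b because their counts differed between the preparations below. Each line gives the 250 bases before the RefSeq start (GRCm38.p6), 5′ to 3′ on the gene's strand, with matches to the motifs below in capitals.
Tnf, chr17:35202008-35202257, minus strand: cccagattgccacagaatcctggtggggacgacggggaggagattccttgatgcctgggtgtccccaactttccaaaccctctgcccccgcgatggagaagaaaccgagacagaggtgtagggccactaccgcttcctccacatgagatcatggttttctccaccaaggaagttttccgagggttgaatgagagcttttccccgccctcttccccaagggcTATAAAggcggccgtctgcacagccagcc
Tnfrsf1b, chr4:145246871-145247120, minus strand: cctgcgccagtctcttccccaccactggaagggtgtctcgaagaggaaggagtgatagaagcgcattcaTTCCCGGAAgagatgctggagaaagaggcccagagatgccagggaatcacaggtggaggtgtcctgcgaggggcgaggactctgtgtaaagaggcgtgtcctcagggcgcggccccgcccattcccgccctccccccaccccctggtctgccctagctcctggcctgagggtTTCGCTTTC
Fas, chr19:34290409-34290658, plus strand: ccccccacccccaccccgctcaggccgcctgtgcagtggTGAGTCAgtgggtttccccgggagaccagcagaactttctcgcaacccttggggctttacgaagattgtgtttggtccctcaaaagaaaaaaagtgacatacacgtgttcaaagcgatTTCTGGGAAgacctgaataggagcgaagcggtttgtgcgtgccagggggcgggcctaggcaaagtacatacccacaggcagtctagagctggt
Tnfsf13b, chr8:10006217-10006466, plus strand: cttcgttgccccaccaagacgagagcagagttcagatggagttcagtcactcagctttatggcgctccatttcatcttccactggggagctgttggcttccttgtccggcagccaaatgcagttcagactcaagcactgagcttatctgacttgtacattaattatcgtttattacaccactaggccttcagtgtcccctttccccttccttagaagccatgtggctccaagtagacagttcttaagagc
The motifs searched on both strands were TATAAA, the interferon-response core GAAANNGAA, the STAT site TTCNNNGAA, the AP-1 site TGANTCA and the NF-kB consensus. In the Tnf window the capitals mark TATAAA, which begins 29 bases before the start. The Tnfrsf1b window holds the reverse complement of GAAANNGAA at its last bases and TTCNNNGAA at -181, and the Fas window holds TTCNNNGAA at -93 and TGANTCA at -211. The Tnfsf13b window shown holds none of the motifs, while the window of another RefSeq start of Tnfsf13b holds GAAANNGAA and TGANTCA. That window and those of Tnfrsf1a (TTCNNNGAA), Tnfsf13 (TGANTCA) and Ltb (TTCNNNGAA and the NF-kB consensus) are not shown because they hold annotated exon bases, and the Ltbr window holds none of the motifs. These letters are common: over 32851 windows of the same length, TATAAA stood in 12.4%, GAAANNGAA in 7.13%, TTCNNNGAA in 7.02%, TGANTCA in 6.75% and the NF-kB consensus in 7.25%. A match is only a match of letters, and no match says nothing of a factor.

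Levels between genes were compared per length, with the FPKM (fragments scaled to gene length and library size) of the authors' deposited tables. Tnfrsf1b, the TNF receptor found mainly on immune cells, was highest of the 9, at 418, 405, 431 and 427 FPKM in the authors' deposited tables, which placed it between rank 85 and rank 89 of the genes listed in each library. Tnf followed, at 172, 151, 156 and 153 FPKM in the authors' deposited tables. Tnfrsf1a, the TNF receptor with a death domain, stood at 65.0, 65.2, 73.5 and 66.85 FPKM in the authors' deposited tables, and Ltbr, the receptor of lymphotoxin α1β2 and LIGHT, at 34.3, 33.3, 33.6 and 32.3 FPKM. The ranges of these 4 genes over the libraries did not touch. In the authors' deposited tables Tnfrsf1b stood at 6.44, 6.21, 5.86 and 6.39 times the FPKM of Tnfrsf1a, so the excess of this receptor was present in all 4 libraries.

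The lower 5 genes had no fixed order. Cd40, a costimulatory receptor of antigen-presenting cells, had 12.1, 11.1, 23.6 and 21.8 FPKM in the authors' deposited tables. Fas, the death receptor, had 22.1, 22.0, 10.0 and 9.65 FPKM in the authors' deposited tables. Fas therefore stood above Cd40 in both libraries of precursor cells 1 and below it in both of precursor cells 2. Ltb, the membrane-anchored lymphotoxin subunit, had 10.2, 12.3, 7.95 and 7.39 FPKM in the authors' deposited tables. Tnfsf13 had 0.825, 1.10, 10.5 and 11.8 FPKM there and Tnfsf13b 0.234, 0.350, 1.17 and 0.932 FPKM, the lowest level of the 9 in every library. In precursor cells 2 Tnfsf13 stood above Ltb and Fas, and in precursor cells 1 far below both. That order uses the reads given to Tnfsf13 alone and depends on how reads shared with overlapping gene models were divided.

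**Figure D1:**
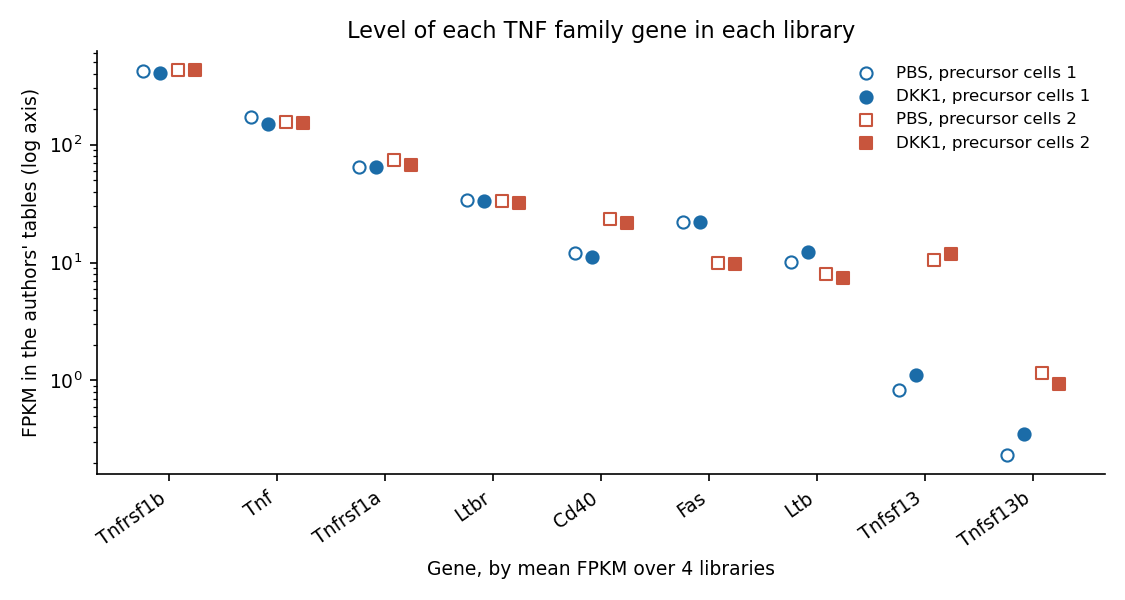
Level of each of the 9 genes in each library, as FPKM from the authors' deposited tables on a log axis; circles are precursor cells 1, squares precursor cells 2, open symbols PBS and filled symbols DKK1. Tnfrsf1b lies near 420.2 FPKM on average, while Cd40, Fas, Tnfsf13 and Tnfsf13b part by preparation rather than by treatment.

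Precursor cells 1 and 2 are called preparations 1 and 2 where both are compared. The comparison of DKK1 with PBS asked whether a short exposure to DKK1 changes these genes in osteoclast precursors. None of the 9 was called (adjusted p under 0.05), where 0.0515% of all tested genes were, 9 of 17462. By edgeR without adjustment 0 of the 9 had a p under 0.05, against 781 of all tested genes, and DESeq2 and limma-voom also called 0 of the 9. The CPM ranges of the DKK1 and PBS libraries overlapped for all 9, whereas they parted for 16.2% of tested genes. With 2 pairs, the test compares the change with an estimated spread. That spread draws on the disagreement between the pairs and on the dispersion of all tested genes. The intervals below say how large a change the test leaves room for.

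Among the ligands, Tnf had 294.2, 258.4, 301.3 and 294.7 CPM. It was lower with DKK1 in both preparations, and the DKK1 2 library still lay above PBS 1. The estimate was a log2 change of -0.11 (95% CI -0.26 to 0.04, n = 2 pairs; edgeR adjusted p = 0.959), an interval that reaches a 1.19-fold change. Ltb had 16.2, 19.4, 14.2 and 13.2 CPM, higher with DKK1 in precursor cells 1 and lower in precursor cells 2. Its log2 change was 0.10 (95% CI -0.25 to 0.45; edgeR adjusted p = 0.973).

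Tnfsf13 had 1.42, 1.89, 20.4 and 22.8 CPM, higher with DKK1 in both preparations. Its log2 change of 0.21 (95% CI -0.19 to 0.60, edgeR adjusted p = 0.965) was not called, and the interval reaches 1.52-fold. Tnfsf13b had 1.72, 2.54, 9.49 and 7.57 CPM, with a log2 difference of 0.55 in the first preparation and -0.33 in the other. Its estimate of -0.05 (95% CI -0.71 to 0.61; edgeR adjusted p = 0.995) had the widest interval of the 9, reaching 1.64-fold, and its sign turned with the software used, to 0.10 with the legacy edgeR fit and 0.11 with DESeq2.

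Among the receptors, Tnfrsf1b was measured most precisely, at 1670, 1611, 1938 and 1915 CPM. Its log2 change was -0.03 (95% CI -0.12 to 0.05; edgeR adjusted p = 0.97), which leaves room for at most 1.08-fold within the interval. Tnfrsf1a had 176.1, 176.1, 224.7 and 203.4 CPM, level in precursor cells 1 and lower with DKK1 in precursor cells 2. The log2 change of Tnfrsf1a was -0.07 (95% CI -0.22 to 0.08; edgeR adjusted p = 0.969).

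Cd40 had 43.1, 39.35, 94.9 and 87.1 CPM and gave nearly equal log2 differences with DKK1, -0.13 and -0.12 in preparations 1 and 2. The estimate of -0.13 (95% CI -0.31 to 0.05; edgeR adjusted p = 0.959) was not called. Fas had 41.55, 41.4, 21.3 and 20.45 CPM and a log2 change of -0.03 (95% CI -0.26 to 0.20; edgeR adjusted p = 0.991). Ltbr had 84.4, 81.8, 93.15 and 89.4 CPM and a log2 change of -0.05 (95% CI -0.22 to 0.11; edgeR adjusted p = 0.97).

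The DKK1 difference had the same sign in both preparations for 7 of the 9 genes, against 51.4% of all tested genes. Tnf, Tnfrsf1b, Ltbr, Cd40 and Fas were lower with DKK1 in both, and Tnfsf13 was higher in both. Tnfrsf1a was counted among the 7 although its difference in precursor cells 1 was only -0.0002 on the log2 scale, which gives it no direction there. The median absolute log2 difference of the 9 was 0.13 and 0.11 in preparations 1 and 2, and that of all tested genes 0.15 and 0.16. In the authors' deposited tables, which compare 1 library with 1 in each preparation, 0 of the 9 were marked significant, where 122 of 13253 and 130 of 13175 genes were. The log2 ratios of the 9 ran from -0.18 for Tnf to 0.43 for Tnfsf13b in the authors' deposited table for precursor cells 1. In that for precursor cells 2 they ran from -0.29 for Tnfsf13b to 0.16 for Tnfsf13. Ltb, Tnf and Tnfsf13b had an FDR under 0.05 in the first table only. The share of all listed genes under that FDR was not computed. The authors' marks also took a log2 ratio threshold of 1 in size, which none of the 9 reached. The 0 marks therefore say nothing of smaller changes.

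**Figure D2:**
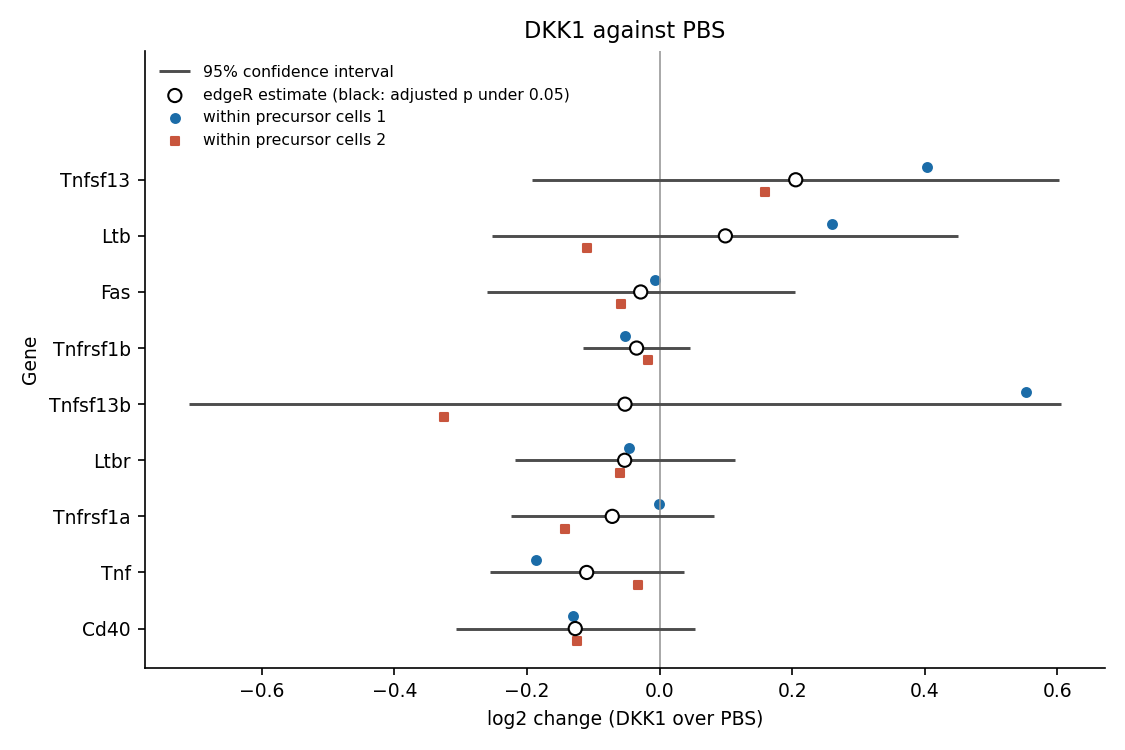
Log2 change of each gene with DKK1 (x axis); open circles are edgeR estimates with 95% confidence intervals, small blue circles the difference within precursor cells 1 and red squares within precursor cells 2. Every interval includes 0, and Tnfsf13b and Ltb have their pair values on opposite sides of it.

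The rest of the pathway was followed in lists of known genes. Of 84 tested genes in 5 TNF lists, 1 was called with DKK1. This was Tnfaip3, the deubiquitinase A20 that ends NF-kB signalling, with 5694, 9790, 3597 and 7580 counts. Tnfaip3 was listed under receptor signalling, so it is not among the 14 TNF-induced genes counted below. Both DKK1 libraries lay above both PBS libraries in CPM, and the rise was 1.79-fold, a log2 change of 0.84 (95% CI 0.68 to 1.00) with an edgeR adjusted p of 0.0469. It was not called with upper-quartile scaling, without the filter on low counts, with the legacy edgeR fit, with limma-voom or without the pairing. With DESeq2, with DESeq2 size factors in edgeR and with a stricter filter, 1 gene of the 5 lists was called. None of 8 other tested ligands, 20 other receptors, 13 genes of TNF shedding and mRNA control or 14 TNF-induced genes was called with DKK1 by edgeR, DESeq2 or limma-voom, and at an unadjusted edgeR p under 0.05 there were 0, 0, 1 and 2 of them. The gene with the smallest p in each of these lists was Tnfsf9, the ligand of 4-1BB (log2 -0.31; edgeR adjusted p = 0.959), Tnfrsf12a, the TWEAK receptor (log2 -0.41; edgeR adjusted p = 0.959), Adam17, the protease that releases TNF from the membrane (log2 -0.35; edgeR adjusted p = 0.959), and Il1b, the inflammatory cytokine (log2 -0.19; edgeR adjusted p = 0.959). The median log2 change was 0.02 for the other ligands, -0.01 for the other receptors, 0.00 for receptor signalling, -0.03 for shedding and mRNA control and -0.04 for TNF-induced genes, beside 0.00 for all tested genes. The 3 tools called 0 of 12 interferon-stimulated genes and 0 of 76 tested cell type markers with DKK1. An unadjusted edgeR p under 0.05 was found for 2 of the 12 and 20 of the 76, beside 781 of 17462 tested genes. Of those 20 markers 6 were B cell markers, whose summed level was 348.8, 265.1, 172.9 and 173.8 CPM, and 4 erythroid markers. Of 12 B cell markers 9 were lower with DKK1 and 3 higher. Their median log2 change was -0.45, with -0.53 in precursor cells 1 and 0.04 in precursor cells 2. Of 7 tested erythroid markers 6 were lower and 1 higher, with a median of -0.42.

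The design also allows precursor cells 2 to be compared with precursor cells 1, across both treatments. Of the 9 genes 6 were called, where 33.9% of all tested genes were. Tnfsf13, Tnfsf13b, Cd40, Tnfrsf1a and Tnfrsf1b were higher in precursor cells 2, 5 of 9 where 17.9% of genes were higher, and Fas was lower, 1 of 9 where 15.9% were lower. The CPM of the preparations parted for all 9 genes, as for 69.0% of tested genes. No preparation was repeated, so the comparison holds for these 2 preparations and not for mice in general.

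Tnfsf13 differed most. Its counts were 80, 107, 788 and 990, and both libraries of precursor cells 2 lay far above both of precursor cells 1. The log2 difference was 3.71 (95% CI 3.27 to 4.15; edgeR adjusted p = 5.97e-05), 13.1-fold. The exons of Tnfsf13 share 983 bases with Tnfsfm13, a model on the same strand that joins Tnfsf12 and Tnfsf13, and 221 bases with the antisense model Tnfsf13os. Tnfsfm13 had 985, 1012, 922 and 1060 counts and Tnfsf13os 44, 7, 123 and 121, and how the authors divided shared reads between them is not given in the sources used here. The share of Tnfsf13 in the counts of the 3 models was 7.21% in PBS 1, 9.5% in DKK1 1, 43.0% in PBS 2 and 45.6% in DKK1 2. Summed over the 3 models the log2 difference was 1.30 (edgeR adjusted p = 0.000254), so the direction held and the size was much smaller. The summed difference lay below that of Tnfsf13b (log2 1.99), so the first place of Tnfsf13 depends on how shared reads were divided. With DKK1 the sum gave a log2 change of 0.05 (edgeR adjusted p = 0.982). Tnfsf12 (TWEAK), the neighbouring ligand, had 1274, 1334, 892 and 1085 counts and a log2 difference of 0.06 (edgeR adjusted p = 0.699).

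**Figure D3:**
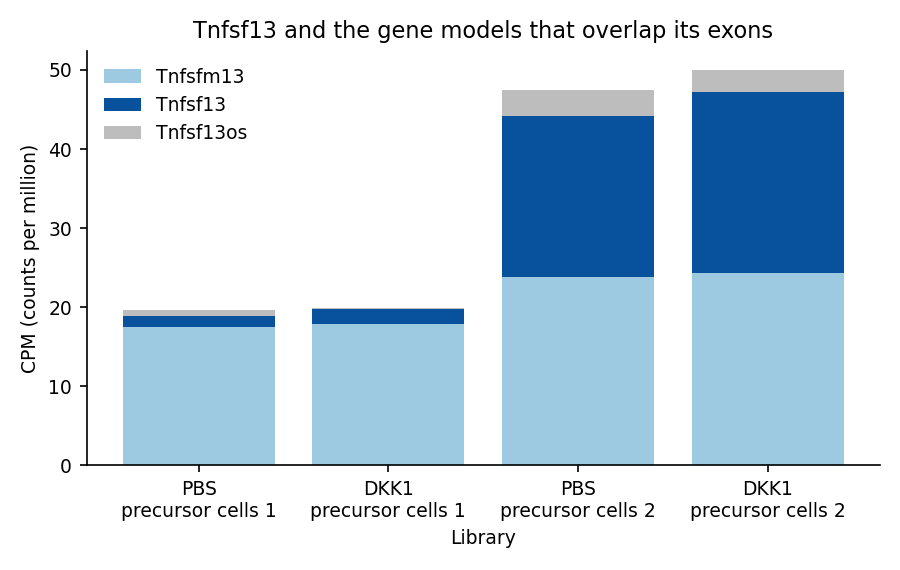
CPM of Tnfsf13 and of the 2 gene models that overlap its exons, stacked for each library. The Tnfsf13 segment stands at 1.42 and 1.89 CPM in precursor cells 1 and at 20.4 and 22.8 CPM in precursor cells 2, while Tnfsfm13 lies between 17.4 and 24.4 CPM in all 4.

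Tnfsf13b, with 97, 144, 367 and 329 counts, was also higher in both libraries of precursor cells 2, by 3.98-fold (log2 1.99, 95% CI 1.32 to 2.67; edgeR adjusted p = 0.00337). Tnf, with 16617, 14664, 11650 and 12814 counts in libraries of different size, was not called (log2 0.11, 95% CI -0.03 to 0.26; edgeR adjusted p = 0.202). Ltb, with 916, 1102, 550 and 573 counts, was not called either (log2 -0.38, 95% CI -0.73 to -0.02; edgeR adjusted p = 0.0953). The B cell survival ligands thus differed between the preparations and the other ligand pair of chromosome 17 did not pass the test.

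Among the receptors, Cd40 and Fas went in opposite directions. Cd40, with 2433, 2233, 3669 and 3786 counts, was 2.21-fold higher in precursor cells 2 (log2 1.14, 95% CI 0.96 to 1.32; edgeR adjusted p = 0.000185). Fas, with 2347, 2347, 823 and 889 counts, was 1.99-fold lower (log2 -0.99, 95% CI -1.23 to -0.76; edgeR adjusted p = 0.000868). For both, the libraries of a preparation lay close together whatever the treatment.

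The TNF receptors proper differed little. Tnfrsf1a, with 9949, 9994, 8685 and 8845 counts, was higher by a log2 of 0.28 (95% CI 0.13 to 0.43; edgeR adjusted p = 0.019). Tnfrsf1b, with 94330, 91422, 74924 and 83249 counts, was higher by a log2 of 0.23 (95% CI 0.15 to 0.31; edgeR adjusted p = 0.0038). In fits without the pairing and with a library left out, both small differences kept their sign. They lay between 0.2077 and 0.3431 for Tnfrsf1a and between 0.205 and 0.2555 for Tnfrsf1b. Neither call held in all of these fits, each of which leaves a single library in a preparation. Without the filter on low counts the paired edgeR adjusted p of Tnfrsf1a was 0.0866. Ltbr, with 4769, 4641, 3601 and 3886 counts, was not called (log2 0.13, 95% CI -0.03 to 0.30; edgeR adjusted p = 0.18).

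**Figure D4:**
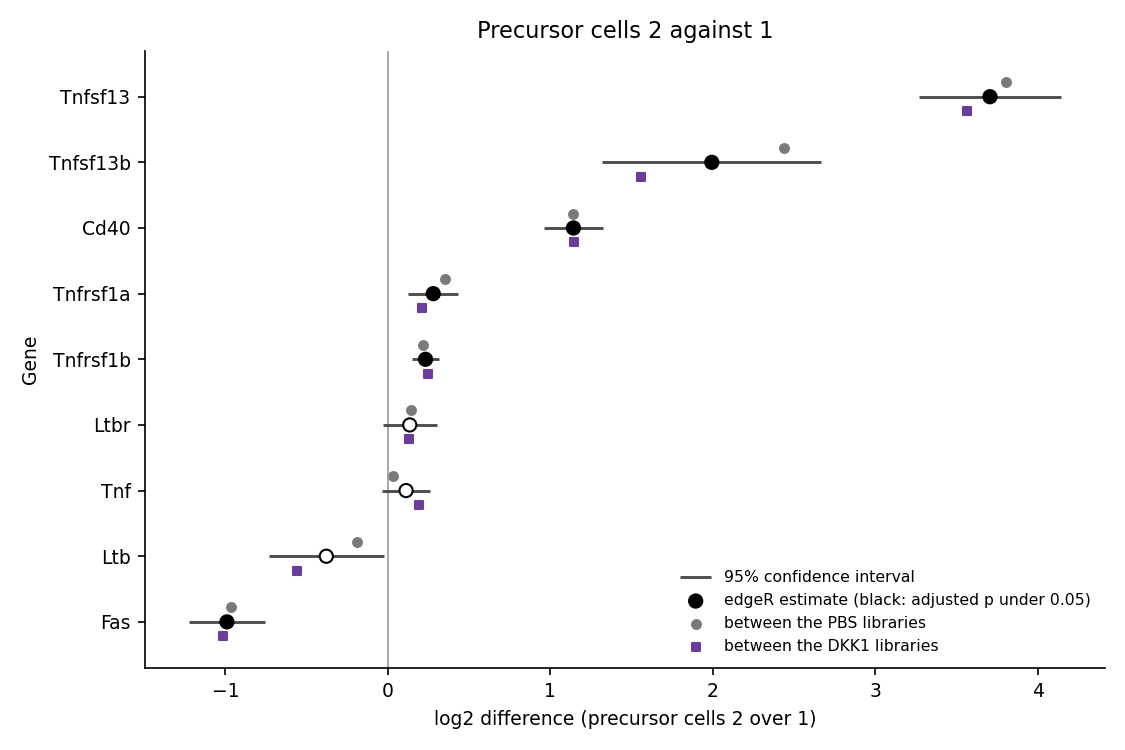
Log2 difference of each gene between precursor cells 2 and 1 (x axis); large circles are edgeR estimates, black where the adjusted p was under 0.05, with 95% confidence intervals, and small symbols the difference between the PBS libraries (grey circles) and between the DKK1 libraries (violet squares). Tnfsf13 lies at 3.71, Fas at -0.99, and the PBS and DKK1 values of each gene have the same sign.

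Of 8 other tested ligands of the superfamily 4 were higher in precursor cells 2 and 0 lower, 50.0% called beside 33.9% of all tested genes, with a median log2 difference of 0.85 beside 0.00. They were Tnfsf10 (TRAIL), which binds death receptors (log2 3.32; edgeR adjusted p = 2.47e-05), Tnfsf15 (log2 1.96; edgeR adjusted p = 0.0024), Tnfsf14 (LIGHT), a ligand of Ltbr (log2 0.92; edgeR adjusted p = 0.00605), and Tnfsf8, the ligand of CD30 (log2 3.32; edgeR adjusted p = 0.00788). The other 6 ligands, Cd40lg, Fasl, Cd70, Tnfsf11, Tnfsf18 and Eda, were too low to test, with at most 21 counts in a library. They include the ligands of Cd40, Fas and RANK.

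Of 20 other tested receptors 3 were higher and 2 lower, with a median log2 difference of 0.12. The 25.0% called lies below the 33.9% of all tested genes. Tnfrsf14, a receptor of LIGHT, was higher (log2 1.68; edgeR adjusted p = 5.34e-05). Tnfrsf17 (BCMA), a plasma cell receptor of Tnfsf13 and Tnfsf13b, had 0, 0, 34 and 32 counts and was at least 15.3-fold higher in precursor cells 2 (edgeR adjusted p = 0.0186), with a floor of 3 counts per library. The B cell receptors of Tnfsf13b were lower: Tnfrsf13c, the BAFF receptor (log2 -0.98, edgeR adjusted p = 0.0207), and Tnfrsf13b, known as TACI (log2 -0.40, edgeR adjusted p = 0.0306).

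Of 29 genes of TNF receptor signalling 14 were higher and 3 lower in precursor cells 2 (58.6% called, beside 33.9% of all tested genes), with a median log2 difference of 0.25. Those with the smallest p were Mlkl, the executor of necroptosis (log2 1.56; edgeR adjusted p = 7.94e-05), Rnf31, a subunit of the linear ubiquitin ligase (log2 1.36; edgeR adjusted p = 0.000146), Cflar, the inhibitor of caspase-8 (log2 0.60; edgeR adjusted p = 0.000419), and Casp8, the initiator caspase itself (log2 0.66; edgeR adjusted p = 0.000829). Of 13 genes of TNF shedding and mRNA control 3 were higher and 3 lower (46.2% called), with a median of -0.05. Zfp36l1, which binds AU-rich elements of mRNAs, was higher (log2 0.95; edgeR adjusted p = 0.000365), as was Sppl2a, an intramembrane protease (log2 0.59; edgeR adjusted p = 0.000605). Furin, a proprotein convertase (log2 -0.59; edgeR adjusted p = 0.000775), and Timp3, an inhibitor of Adam17 (log2 -0.56; edgeR adjusted p = 0.00343), were lower.

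Of 14 TNF-induced genes 5 were higher and 5 lower (71.4% called, beside 33.9% of all tested genes), with a median of -0.09, so the list held genes called in both directions. The chemokine Cxcl10, which interferons also induce (log2 3.41; edgeR adjusted p = 1.97e-06), and Tnfaip2 (log2 0.87; edgeR adjusted p = 6.07e-05) were higher. The neutrophil chemokine Cxcl1 (log2 -2.97; edgeR adjusted p = 7.94e-05) and Il1b (log2 -0.93; edgeR adjusted p = 0.000193) were lower. All 12 interferon-stimulated genes of the list were higher in precursor cells 2, with a median log2 difference of 2.92. Their summed level was 1460, 1623, 10240 and 10340 CPM, and Mx1 (log2 3.74; edgeR adjusted p = 1.97e-06), Rsad2 (log2 3.56; edgeR adjusted p = 3.22e-06), Ifit3 (log2 3.96; edgeR adjusted p = 8.31e-06) and Ifit1 (log2 3.22; edgeR adjusted p = 8.53e-06), antiviral effectors, had the smallest p. Of the 9 genes 7 had a positive log2 difference, the same side as the interferon-stimulated genes, as had 8689 of 17462 tested genes. Fas and Ltb had a negative one. The part of interferon in the differences of the 9 was not tested.

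**Figure D5:**
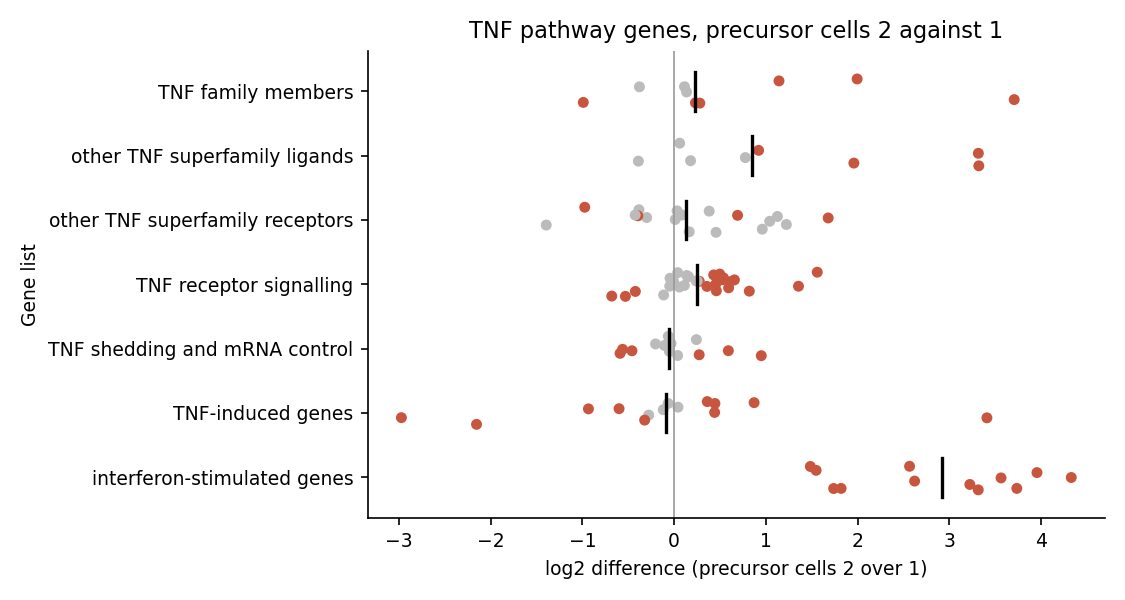
Log2 difference between precursor cells 2 and 1 (x axis) for the 9 genes and 6 lists of pathway genes; each point is a gene, red where the edgeR adjusted p was under 0.05, each bar a list's median over the points shown, and vertical scatter has no meaning. Tnfrsf17 and Tnfrsf19, at 0 in both libraries of a preparation, are left out; the interferon-stimulated genes, with a median of 2.92, all lie to the right of 0.

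Markers of other cell types were read in the same comparison, beside the 33.9% of all tested genes called, and in bulk RNA fewer cells of a type and less RNA per cell cannot be told apart. Of 12 B cell markers 10 were lower and 1, Cd22, higher in precursor cells 2, and their summed level, given above, was higher in both libraries of precursor cells 1. Among the lower ones were Pax5 (log2 -3.90; edgeR adjusted p = 8e-05), Fcmr (log2 -2.87; edgeR adjusted p = 0.000237) and Rag1, with 1047, 756, 0 and 8 counts. Most of the sum in precursor cells 2 came from Blnk, with means of 86.48 and 86.18 CPM in preparations 1 and 2, and Cd22, with 29.64 and 55.64 CPM. This sum therefore says little of the other B cell markers. Of 10 dendritic cell markers 5 were higher and 3 lower, with sums of 1183, 1068, 4102 and 3973 CPM. Of these 10, Cd74 (log2 2.14, edgeR adjusted p = 9.84e-06) and Bst2 (log2 1.35, edgeR adjusted p = 1.76e-05) were higher. Siglech (log2 -1.54, edgeR adjusted p = 0.00506) was lower, and Cd209a had 64, 78, 0 and 0 counts. Most of the sums came from Cd74, with means of 684.5 and 3004 CPM in preparations 1 and 2, and Bst2, with 379.5 and 962.5 CPM. The sums therefore say little of the other dendritic cell markers. Of 12 monocyte and macrophage markers 6 were higher and 4 lower: Ly6c2 (log2 2.84; edgeR adjusted p = 1.97e-06) and Mertk (log2 2.12; edgeR adjusted p = 2.17e-05) were higher, and Cd14 (log2 -1.50; edgeR adjusted p = 8.53e-06) and Lyz2 (log2 -0.78; edgeR adjusted p = 8.53e-06) lower.

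Of 10 neutrophil markers 8 were higher and 1 lower, led by Ngp (log2 1.14; edgeR adjusted p = 1.06e-05), with sums of 4743, 4637, 7959 and 8071 CPM. Of 10 tested T and NK cell markers 2 were higher and 1 lower, a share of 30.0% that lies below that of all tested genes, with sums between 34.72 and 54.58 CPM. Of 7 tested erythroid markers 5 were higher and 0 lower, with sums of 108.8, 78.42, 166.9 and 129.1 CPM, and of 7 stromal markers 3 were higher and 1 lower, with sums between 67.47 and 117.1 CPM. Of 8 tested osteoclast markers 3 were higher and 2 lower, among them Ctsk, the bone-degrading protease (log2 2.27; edgeR adjusted p = 0.00124), and Mmp9, a matrix metalloprotease (log2 -0.87; edgeR adjusted p = 9.03e-05). No marker of the B, T and NK, dendritic, neutrophil, erythroid, stromal or monocyte lists was at 0 in all 4 libraries. Klrb1c, Ncr1, Klf1 and Bglap of these lists were too low to test. Klf1 had 3 counts and Bglap 2, in DKK1 1 only, so a count above 0 does not show that a cell type was present. The part of other cell types in the differences of the 9 genes was not tested.

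For each of the 9 the gene with the most similar profile was sought among 9976 genes, by Euclidean distance between centred log2 CPM values over the 4 libraries. Tnfsf13 was nearest to Ifi213, an interferon-inducible gene, at a distance of 0.198, with 19.2, 25.4, 317.1 and 304.9 CPM for Ifi213. Tnfsf13b was nearest to Apol7c at 0.207, and Cd40 to Grina at 0.0616. Fas was nearest to Tcf19 at 0.0173 and Ltb to Wars2 at 0.0432. The evenly expressed genes had closer partners: Tnf was nearest to Cbwd1 at 0.00864, Tnfrsf1a to Glmp at 0.0118, Tnfrsf1b to Emc4 at 0.0108 and Ltbr to Shc1 at 0.00679. With 4 libraries many genes share such a profile, and nearness is a description.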

How the data were processed

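RNA sequencing counts of 4 libraries were analysed. The authors deposited raw counts, whole numbers that were not normalized, for each gene. Per the submitters' processing notes, reads were handled with fastp and HISAT2 on mm10; the counting program, its annotation and its strand setting are not stated. The FPKM, log2 ratios, p-values and FDR in the authors' deposited tables, 1 per preparation, compare 1 library with 1, per the file headers; how they were computed is not stated.

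Of 53801 genes, 26361 had a count and 17462 passed filterByExpr, with 99.95% of the counts. edgeR 4.0.16 (R 4.3.3) quasi-likelihood tests with TMM scaling used terms for preparation and treatment, leaving 1 residual degree of freedom; p-values are two-sided, Benjamini-Hochberg adjusted over all 17462 genes, with a threshold of 0.05. Intervals (95%) were derived from the estimate and its F statistic. Differences within a pair are log2 CPM with a prior count of 2. The pairing comes from the numbers in the labels, which name 2 mice; after subtracting group means, libraries of the same number correlated at 0.726 over genes, and principal component 1 (76.1% of variance) parted the preparations. Whether treated and control cells were separate cultures is not stated. The p-values rest on the spread between these libraries, moderated over all tested genes. DESeq2 1.42.0 and limma-voom (limma 3.58.1) were alternatives, with other scalings, filters and libraries left out. The method was tested on simulated data.

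The 9 genes and the 14 lists were chosen with earlier results of these data known. The text names all 9, Tnfrsf11a, models overlapping their exons, and per TNF or interferon list the 4 called genes with the smallest p, or otherwise the 1 with the smallest p; for cell type lists the same rule applies but not all its genes are given. The nearest profile was sought among genes with a mean of at least 5 CPM. Tnfsf12, Tnfrsf19, the untested ligands, the untested markers named and Scnn1a were named after their values were seen. Positions come from GENCODE M21, and promoter windows from a RefSeq table that held 8 of the 9 genes; windows with annotated exon bases are not shown.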

Additional observations from a re-analysis of the deposited data

Results flagged for a closer look

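The ligands Tnfsf13b and Ltb were picked out because their difference with DKK1 had opposite signs in the preparations. For Tnfsf13b the log2 difference was 0.5524 in preparation 1 and -0.3255 in preparation 2, from between 97 and 367 counts per library. For Ltb these values were 0.2593 and -0.11. With 1 pair per preparation the difference between them was not tested.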

How the results depend on the processing

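Each of the 9 genes was recomputed in both comparisons under other settings. Of 162 values with a test, 159 kept their direction and their side of the threshold. These leave out the fits without the pairing that also drop a library, where treatment and preparation are unbalanced. In those fits the DKK1 estimate changed sign with the library dropped for every gene but Tnf. That of Tnfsf13 ran from -2.5163 to 3.1188. The preparation differences all kept their direction there. Leaving out a library from the paired fit gave 72 more values, with no test, of which 68 kept their direction: with DKK1, Tnfsf13b turned to 0.5524 without PBS 2 or DKK1 2, and Ltb to -0.11 without PBS 1 or DKK1 1. The DKK1 estimate of Tnfsf13b turned to 0.0953 with the legacy edgeR fit and to 0.107 with DESeq2; the cause was not tested. That of Tnfsf13 moved to 0.4027 when a library of precursor cells 2 was left out, which leaves 1 pair. The preparation difference of Tnfrsf1a was 0.2523 and not called without the filter on low counts (edgeR adjusted p = 0.0866, range over its alternatives 0.0109 to 0.0866). No alternative called any of the 9 with DKK1. Between the preparations 6 of 9 were called, and 5 without the filter. The calls of Tnfrsf1a and Tnfrsf1b did not hold in every fit without the block and with a library left out, as given above. Without the replicate block the counts of the 9 called were 0 with DKK1 and 6 between the preparations, so the pairing changed no count among them. Of the TNF lists, 1 gene was called with DKK1, and 0 with upper-quartile scaling, no filter, the legacy fit, no replicate block or limma-voom. With DESeq2, DESeq2 size factors in edgeR, the stricter filter or summed overlapping models it was again 1. Between the preparations 42 list genes were called, 24 to 37 with a library left out, the lowest without DKK1 2. The list alternatives were chosen after seeing the data. Leaving out a library removes the residual degree of freedom of the paired fit, so those counts come from the fit without the block. Other scalings moved the median of all genes by at most 0.05 (log2) in size. Depth limits Tnfsf13 and Tnfsf13b most, with 80 and 97 counts in PBS 1.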
